A study of Mus musculus with 2 samples.

Results

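The hairpins of miR-23, miR-27 and miR-24 lie in 2 paralogous clusters of the mouse genome. The chromosome 8 cluster holds Mir23a, Mir27a and Mir24-2, and the chromosome 13 cluster holds Mir23b, Mir27b and Mir24-1. These 6 genes, of 1174 miRNA genes with a Mir symbol in the reference annotation, were taken as a fixed list. The list was selected on a measured value, the high share of 18 nt reads of miR-27 in the DMSO library, so that share is described here and not tested.

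The tags come from J1 cells, a mouse embryonic stem cell line of strain 129S4/SvJae that was kept on gelatin. Cells were held for 6 h with 1 µM SC1, or with the same volume of the solvent DMSO. Both cultures were in serum replacement medium with 1000 U/mL of LIF, the cytokine that keeps these cells undifferentiated. SC1 (pluripotin) is a small molecule known to support self-renewal by inhibiting ERK1 and RasGAP, and the study asked which miRNAs it regulates. Each condition has 1 library, so no value carries a replicate error, and intervals are exact 95% binomial or Poisson intervals that cover counting error only.

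The SC1 list holds 1275599 reads of 3 to 17 nt, and the DMSO list 18870345 reads of 18 to 44 nt. They share 0 lengths, so neither total is the depth of a library and no SC1 to DMSO difference was computed. Tags of 15 to 17 nt in the SC1 list and of 18 to 26 nt in the DMSO list were counted where they matched a hairpin exactly. The SC1 list had 53343 such reads on any miRNA hairpin, of which 947 (1.78%, interval 1.67 to 1.89) fell on the 6 hairpins. The DMSO list had 2177993, of which 17427 (0.800%, interval 0.788 to 0.812) fell on the 6 hairpins, in 100 distinct tags. When tags were read backwards, 0 reads of either list matched the 6 hairpins. All 11 embryonic stem cell hairpins of a marker list (the miR-290 cluster with the miR-302 cluster) had DMSO reads, 28.7% of all hairpin reads. Most were of the miR-290 cluster, with 217926 reads of miR-293-3p and 207116 of miR-290a-5p. In the miR-302 cluster only miR-302a-5p, with 171 reads, reached 100 reads, so the 28.7% does not speak for that cluster. Marker hairpins of other cell types held 0.154% (fibroblasts), 0.139% (muscle), 0.0148% (blood), 0.00317% (endothelial cells) and 0.00253% (liver), with Mir214 and Mir223 at 0.

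Each cluster is transcribed as 1 long precursor, from which Drosha and then Dicer cut the hairpins and the mature strands. The strand from the 3′ side of each hairpin (3p) is the one usually loaded into Argonaute, and its bases 2 to 8, the seed, pair with target mRNAs. miR-23 and miR-27 are known for roles in blood vessel growth and in lipid metabolism, and miR-24 for restraining the cell cycle. In mouse embryonic stem cells, miR-27a and miR-24 have been reported to favour differentiation and to be repressed by c-Myc.

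The hairpins are shown because the results turn on where their tags lie and on which bases the paralogs share. Sequences are those of RefSeq on GRCm38.p6, 5′ to 3′, all on the plus strand, and capitals mark the most abundant DMSO tag of each arm. All 6 hairpins were found in the RefSeq table and were identical to those of GENCODE M21.
Mir23a (chr8:84208518-84208592): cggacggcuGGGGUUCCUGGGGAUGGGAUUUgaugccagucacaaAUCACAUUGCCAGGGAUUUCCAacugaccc
Mir27a (chr8:84208672-84208758): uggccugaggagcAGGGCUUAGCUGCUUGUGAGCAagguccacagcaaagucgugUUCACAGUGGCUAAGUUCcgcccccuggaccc
Mir24-2 (chr8:84208815-84208921): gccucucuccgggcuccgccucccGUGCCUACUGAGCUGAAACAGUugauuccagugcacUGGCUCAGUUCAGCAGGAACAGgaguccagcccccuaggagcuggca
Mir23b (chr13:63300484-63300557): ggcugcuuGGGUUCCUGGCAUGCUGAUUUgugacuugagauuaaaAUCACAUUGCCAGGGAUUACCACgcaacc
Mir27b (chr13:63300712-63300784): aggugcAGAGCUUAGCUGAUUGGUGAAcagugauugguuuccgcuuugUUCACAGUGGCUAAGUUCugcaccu
Mir24-1 (chr13:63301208-63301275): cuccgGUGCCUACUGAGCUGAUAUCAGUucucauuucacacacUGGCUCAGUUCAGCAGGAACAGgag

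The chromosome 8 cluster spans 404 bp. No other annotated gene overlaps Mir23a or Mir27a, while the end of Mir24-2 overlaps an exon of the lincRNA gene Gm26532 on the same strand. The chromosome 13 cluster spans 792 bp inside 2010111I01Rik, a protein-coding gene on the same strand, and inside introns of Fancc on the other strand. Mir23b lies in an intron of 2010111I01Rik, and Mir27b and Mir24-1 overlap annotated exons of some of its transcripts. Mir3074-2 and Mir3074-1 are annotated on the opposite strand of Mir24-2 and Mir24-1.

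The mature 3p sequences fall into 3 seed groups, given here with the seed in capitals. The RefSeq table has no mature entry for miR-23b-3p, so its seed is that of the main 3p tag on its hairpin. miR-23a-3p and miR-23b-3p share UCACAUU, miR-27a-3p and miR-27b-3p share UCACAGU, and miR-24-3p, made by both of its hairpins, has GGCUCAG.
miR-23a-3p: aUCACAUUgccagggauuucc
miR-27a-3p: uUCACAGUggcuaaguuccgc
miR-27b-3p: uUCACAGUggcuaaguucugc
miR-24-3p: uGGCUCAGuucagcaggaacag

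Positions are counted from 1 at the 5′ end of the 3p product, with the chromosome 8 base first. The miR-23 paralogs are identical for 18 bases and then differ by U19A and A23C. The miR-27 paralogs are also identical for 18 bases and then differ by C19U and C22A. The miR-24 paralogs did not differ over the 23 bases compared. A tag of 18 nt or less from the usual start therefore cannot be given to 1 hairpin in any of the 3 families. Such shared tags were split equally between the hairpins, and for hairpin totals and arm ratios the values with shared tags left out and with all of them given to the hairpin stand beside the split.

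By reads that match a hairpin exactly, miR-23 was the most abundant of the 3 families in the DMSO library. miR-23-3p had 7238 reads over both paralogs, 3323 in each 1000000 hairpin reads. miR-27-3p had 4805 reads (2206 per 1000000), and miR-24-3p had 3387 (1555 per 1000000). The order depended on which tags were counted. With tailed tags, which carry up to 3 extra A or T at the 3′ end, miR-23-3p had 9491 reads, miR-24-3p 6231 and miR-27-3p 4939. Among tags of 20 to 26 nt, miR-23-3p had 7148 reads, miR-24-3p 3378 and miR-27-3p 555.

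Single hairpins could be compared only where a tag holds a base that differs. miR-23a-3p had 4837 DMSO reads of its own and miR-23b-3p 2399, so the chromosome 8 paralog took 66.8% (interval 65.7 to 67.9), and just 2 reads matched both. With tailed tags counted (5621 and 3868 reads), it took 59.2% (interval 58.2 to 60.2). For miR-27-3p, 3453 reads matched both hairpins, 216 matched Mir27a alone and 1136 matched Mir27b alone. All 3387 reads of miR-24-3p matched both of its hairpins. After equal splitting the 6 hairpins gave 4952 (Mir23a), 1954.5 (Mir27a), 1707.5 (Mir24-2), 3317 (Mir23b), 3799.5 (Mir27b) and 1696.5 reads (Mir24-1). Between leaving out the shared tags and giving all of them to the hairpin, Mir27a ranged over 228 to 3681 reads, Mir24-2 over 14 to 3401, Mir27b over 2073 to 5526 and Mir24-1 over 3 to 3390. The totals of Mir23a and Mir23b moved by 1 read. The split totals summed to 8614 reads for the chromosome 8 cluster and 8813 for the chromosome 13 cluster, but 3 of the 6 depend on the split for most of their reads, and no order of the clusters can be drawn from them.

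The 5p strands, whose tags are not shared between paralogs, came mostly from chromosome 13 for miR-23 and miR-27. miR-23a-5p had 114 DMSO reads and miR-23b-5p 917, a chromosome 8 share of 11.1% (interval 9.21 to 13.1). miR-27a-5p had 12 reads and miR-27b-5p 937, a chromosome 8 share of 1.26% (interval 0.655 to 2.20). The miR-24 strands went the other way at very low counts, with 14 reads of miR-24-2-5p and 3 of miR-24-1-5p. For miR-23, then, most 3p reads carried the chromosome 8 sequence and most 5p reads the chromosome 13 sequence, and the 2 intervals lie far apart.

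The ratio of 3p to 5p reads separated the paralogs of miR-23 in the same way. Mir23a gave 42.4 reads of its 3p arm for each 5p read (interval 35.2 to 51.6), and Mir23b gave 2.62 (interval 2.42 to 2.83). Since only 2 of the 3p reads were shared, this gap does not depend on the split. With tailed tags counted, Mir23a gave 46.9 (interval 39.1 to 56.6) and Mir23b 4.03 (interval 3.75 to 4.33). Mir27a gave 162 (interval 92.5 to 314), or 18.0 if shared tags are left out and 306 if all of them are given to it. Mir27b gave 3.06 (interval 2.84 to 3.29), or 1.21 without the shared tags and 4.90 with all of them. Of the 1136 reads of Mir27b alone behind the 1.21, 783 are the shared 18 bases followed by T. An added T would give the same sequence, so the lower value could be lower still. The ranges of Mir27a and Mir27b under these extremes do not overlap. Mir24-2 and Mir24-1 gave 121 and 564.5 after equal splitting, on 14 and 3 reads of the 5p arm. With all shared tags they gave 242 and 1129, and without them neither has any 3p read. With tailed tags counted and split equally they gave 194.7 and 1038.5.

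The dominant arm of Mir27b depended on the shortest tags. Over 18 to 26 nt its 3p arm had 2862.5 reads after splitting, against 937 of its 5p arm. Over 20 to 26 nt its 3p arm had 352 reads and its 5p arm 902, a 3p share of 28.1% (interval 25.6 to 30.6). No tag of these lengths matched Mir27a as well, so the split plays no part in the second value. The other 5 hairpins kept a 3p majority over 20 to 26 nt, from 72.3% for Mir23b to 99.8% for Mir24-1, with the shared miR-24 tags split equally.

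**Figure D1:**
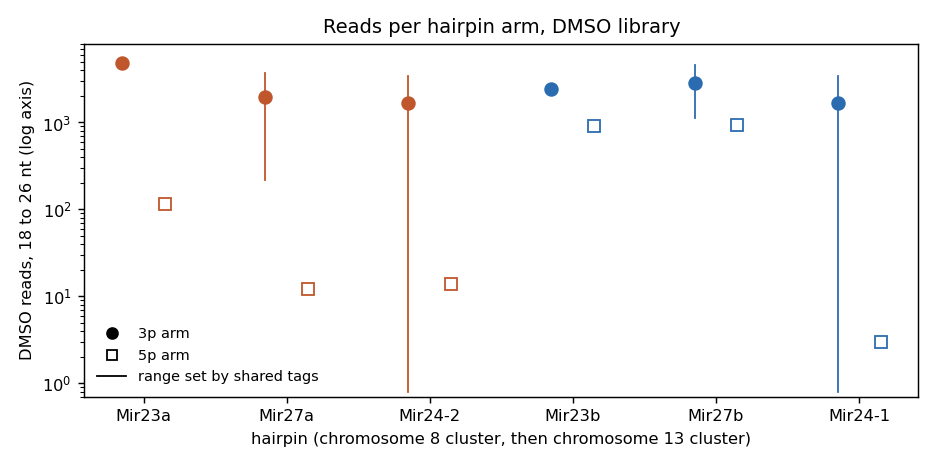
DMSO reads of 18 to 26 nt (log axis) on the 3p arm (filled circles) and the 5p arm (open squares) of each hairpin, with shared tags split equally. Vertical lines run from the reads found in 1 hairpin alone (drawn to the axis where there are 0) to all reads that match it; the 5p squares of Mir23b and Mir27b, at 917 and 937, lie far above the 5p squares of Mir23a and Mir27a, at 114 and 12.

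Length set miR-27-3p apart from its cluster partners, and this is the value for which the family was picked. Of its 4805 DMSO reads, 3434 were 18 nt long, a share of 71.5% (interval 70.2 to 72.7). The DMSO list starts at 18 nt, so shorter reads of that library are not seen and 18 nt need not be the peak length. miR-27-3p had 816 reads at 19 nt, 147 at 20 nt, 354 at 21 nt, 54 at 22 nt and 0 from 23 nt up. The annotated mature form is 21 nt long, so most reads ended 3 bases before its end. The lengths did not fall evenly either, since 20 nt held fewer reads than 19 nt or 21 nt.

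The tags are shown because almost all of this rests on a few sequences. They are DMSO tags as deposited, written as DNA, with the bases after position 18 in capitals.
18 nt, in both hairpins, 3432 reads: ttcacagtggctaagttc
19 nt, in Mir27b, 783 reads: ttcacagtggctaagttcT
20 nt, in Mir27a, 110 reads: ttcacagtggctaagttcCG
21 nt, in Mir27b, 261 reads: ttcacagtggctaagttcTGC
21 nt, in Mir27a, 92 reads: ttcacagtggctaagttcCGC
22 nt, in Mir27b, 49 reads: ttcacagtggctaagttcTGCA

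One tag of 18 nt therefore made up 3432 of the 3434 reads of that length, and it stops at the last base before the paralogs diverge. Among the other reference transcripts, it was found only in one of 2010111I01Rik that contains the whole Mir27b hairpin; the genome outside these transcripts was not searched. Longer tags that continue as Mir27a were fewer than those that continue as Mir27b at 19 nt (13 against 783), at 21 nt (92 against 262) and at 22 nt (0 against 54). The main 22 nt tag of Mir27b is its 21 nt tag followed by A, so an added A would give the same sequence. On Mir27a an added A would not match the hairpin. Whether the 22 nt reads are tails was not tested. At 20 nt the order turned, with 111 reads of Mir27a and 36 of Mir27b. The chromosome 8 share of miR-27-3p was accordingly 1.63% at 19 nt (interval 0.872 to 2.78) and 75.5% at 20 nt (interval 67.7 to 82.2), and 26% at 21 nt (interval 21.5 to 30.9). Pooled over all lengths it was 16% (interval 14.1 to 18.0), and over 20 nt or more 36.6% (interval 32.6 to 40.7).

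The 19 nt value has a limit of its own. The tag of Mir27b at 19 nt is the shared 18 nt tag followed by T, so it cannot be told apart from an 18 nt product of either hairpin with 1 untemplated T. Its 783 reads are also part of the 1136 reads of Mir27b alone. The lower total of 2073 reads, the arm ratio of 1.21 and the pooled share of 16% therefore rest on them too. The same 18 bases followed by A had 1 read, followed by G 0 reads and followed by TT 3 reads. miR-23-3p, which also diverges after base 18, showed no jump in its chromosome 8 share between 19 and 20 nt. It cannot show the effect of an added T, since miR-23a-3p and miR-23b-3p had only 4 and 2 reads at 18 nt. A T after base 18 would also match the chromosome 8 paralog there. The chromosome 8 share of miR-23-3p was 68.6% at 19 nt, 65.5% at 20 nt, 72.6% at 21 nt and 76.3% at 22 nt. At 23 nt it was 45.2% (interval 43.0 to 47.5), below the share at 22 nt (interval 74.9 to 77.7).

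**Figure D2:**
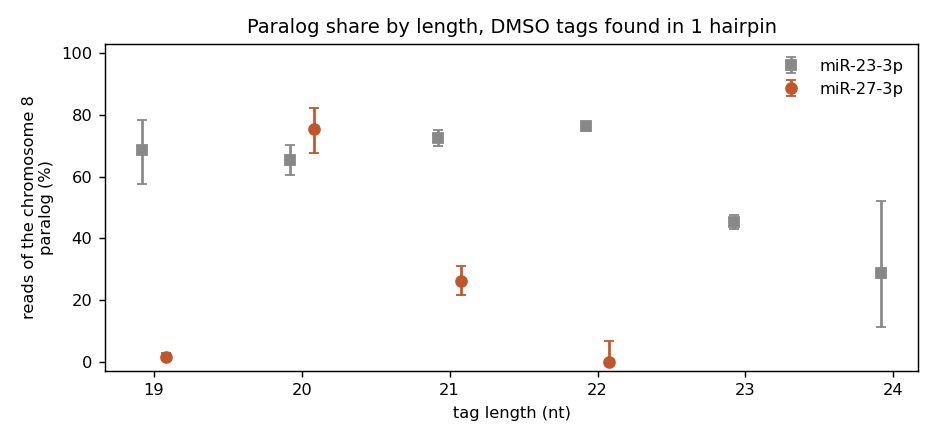
Share of DMSO reads that carry the chromosome 8 sequence (Mir23a or Mir27a, in %) at each tag length in nt, for lengths with 20 reads or more found in 1 hairpin alone; bars are exact 95% binomial intervals. miR-27-3p (circles) lies at 1.63% at 19 nt and 75.5% at 20 nt, while miR-23-3p (squares) stays between 65.5% and 76.3% from 19 to 22 nt.

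The partners of miR-27 in the same precursors had ladders centred on 22 or 23 nt. miR-23a-3p had 2818 of 4839 DMSO reads at 22 nt (58.2%), 846 at 21 nt, 848 at 23 nt and 4 at 18 nt. miR-23b-3p was longer by its main tag, with 1027 of 2401 reads at 23 nt (42.8%), 875 at 22 nt and 2 at 18 nt. miR-24-3p was the most uniform, with 2996 of 3387 reads at 22 nt (88.5%), 331 at 21 nt and 4 at 18 nt. Tags of 18 and 19 nt together made up 88.4% of the reads of miR-27-3p, against 1.24% for miR-23-3p and 0.266% for miR-24-3p.

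The short lengths were not shared by the 5p strands of the miR-27 hairpins. miR-27b-5p was spread over 20 nt (224 reads), 21 nt (283), 22 nt (144) and 23 nt (197), with 2 of 937 reads at 18 nt. The 12 reads of miR-27a-5p were of 22 nt (10) and 23 nt (2). miR-23b-5p had 706 of 917 reads at 21 nt, and miR-23a-5p 86 of 114 at 22 nt and 5 at 18 nt.

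**Figure D3:**
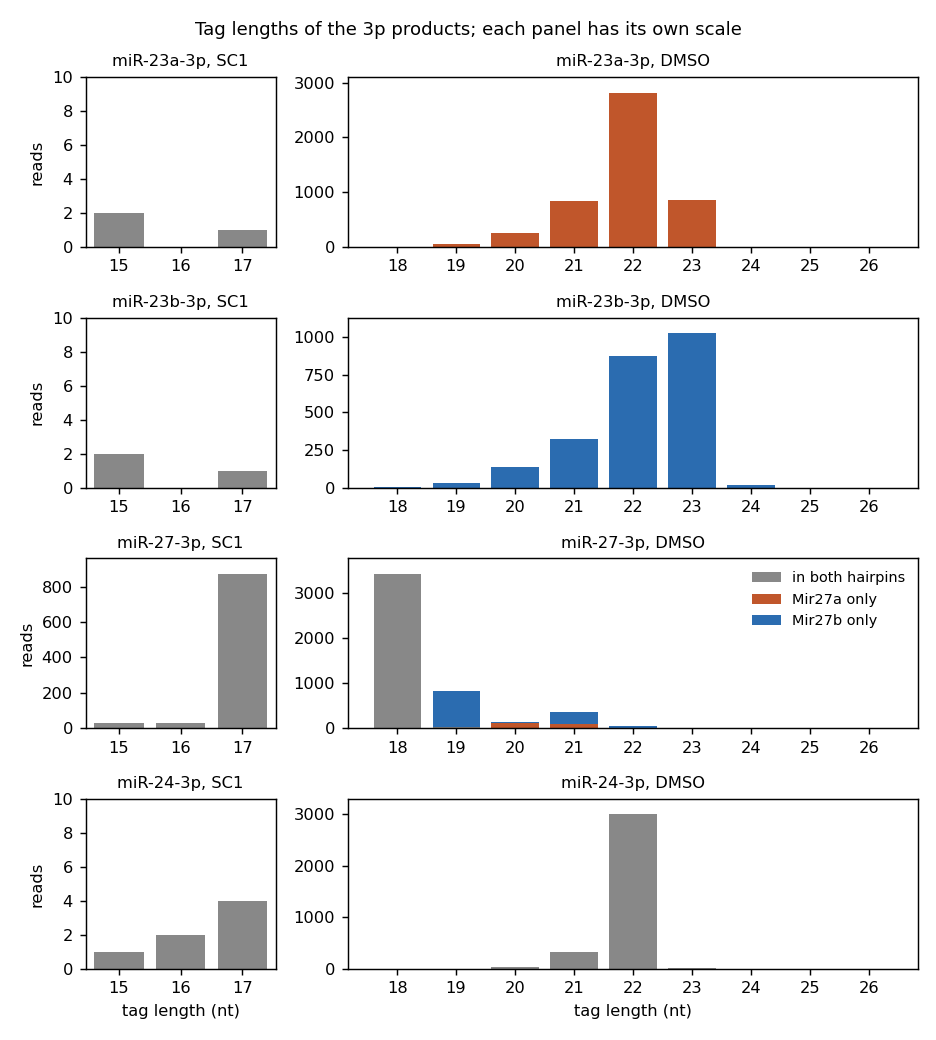
Reads at each tag length (nt) for the 3p products, with the SC1 list (15 to 17 nt) on the left and the DMSO list (18 to 26 nt) on the right; each panel has its own scale, and the lists hold different length classes of different libraries. Grey bars are tags found in both paralogs, or in miR-24; the same 3 SC1 reads are drawn for miR-23a-3p and miR-23b-3p, and miR-27-3p is tallest at 17 nt (873 SC1 reads) and 18 nt (3434 DMSO reads).

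For a view across all miRNAs, arms with the same most abundant tag were joined into 1 mature product, and the 310 products with 100 DMSO reads or more were ranked. Of the 7 products of the 2 clusters among them, 1 had an 18 nt tag as its most abundant, miR-27-3p. Over all 310 products 7 did (2.26%), a background that includes the product for which the list was chosen. miR-27-3p had the second highest 18 nt share, behind miR-296-3p (93.1%) and just ahead of miR-700-3p (66.3% of 104 reads). The median share over the 310 products was 0.267%, and 5 products were at 50% or more. All these shares leave out reads below 18 nt, which the DMSO list does not hold. The other 6 products of the clusters lay between 0.0417% (miR-23b-3p) and 4.39% (miR-23a-5p).

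Among the 93 products with at least as many reads as miR-23b-3p, the highest shares after miR-296-3p and miR-27-3p were those of miR-341-3p (21.1%), miR-409-3p (19.5%) and miR-376a-3p (14.5%). Pooled over the 7 products of the 2 clusters, 3450 of 17398 reads were of 18 nt (19.8%), nearly all of them of miR-27-3p. Pooled in the same way, the miR-101 family had 8.05%, the miR-15/16 family 0.472%, the miR-26 family 0.434% and the miR-30 family 0.189%. Their highest single products were miR-15b-3p (21.5% of 107 reads), miR-101b-3p (10.9% of 49248), miR-30e-3p (5.13% of 234) and miR-26a-5p (0.725% of 4136). None of the products of these 4 families had an 18 nt tag as its most abundant.

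**Figure D4:**
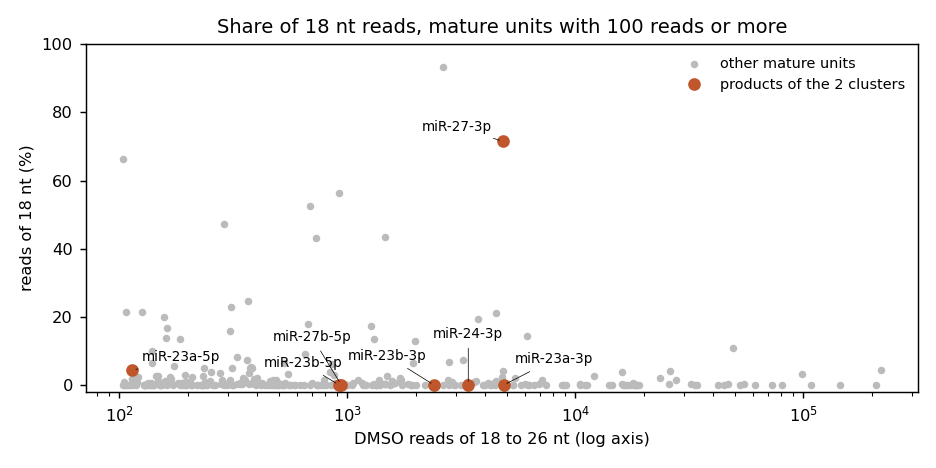
Reads of 18 nt as a percentage of all DMSO reads of 18 to 26 nt, against the number of those reads (log axis), for 310 mature products with 100 reads or more. miR-27-3p lies at 71.5%, and the other 6 products of the 2 clusters lie between 0.0417% and 4.39%.

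The 3′ ends of these miRNAs also differed in added bases. A tag was counted as tailed if it matched a hairpin after up to 3 untemplated A or T were removed from its 3′ end. Added bases that happen to match the hairpin are missed, and a sequencing error to A or T at the end of a longer read would be counted; neither was measured. miR-24-3p had 2844 tailed beside 3387 exact reads, a share of 45.6% (interval 44.4 to 46.9). miR-23b-3p had 38.0% (interval 36.4 to 39.5) and miR-23a-3p 13.9% (interval 13 to 14.9), so the paralogs with the same first 18 bases differed well beyond counting error. miR-27-3p had 2.71% (interval 2.28 to 3.21). The median over the 310 products was 6.53%, and miR-24-3p ranked 13, miR-23b-3p 19, miR-23a-3p 86 and miR-27-3p 240. The value of miR-27-3p counts 783 reads of its 18 nt tag followed by T as exact reads of Mir27b. An added T would give the same sequence, so its share and rank would be higher if some of these were tails, which was not tested.

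The added base was mostly T, which stands for U in the RNA. Tails of T alone made up 90.6% of the tailed reads of miR-24-3p, 91.8% for miR-23b-3p, 93.0% for miR-23a-3p and 56.7% for miR-27-3p. The most abundant tailed tag of each is shown, with the added base in capitals.
miR-24-3p, 2188 reads: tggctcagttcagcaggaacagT
miR-23b-3p, 858 reads: atcacattgccagggattaccacT
miR-23a-3p, 367 reads: atcacattgccagggatttccaT
miR-27-3p, 29 reads: ttcacagtggctaagttccgT

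Tailing varied with the length of the templated part. For miR-23b-3p it reached 48.8% of the reads at 23 nt and 32.4% at 22 nt, but 8.05% at 21 nt. For miR-23a-3p it was 24.3% at 23 nt, 14.3% at 22 nt and 1.17% at 21 nt. Both miR-23 paralogs were thus tailed more often at 22 and 23 nt than at 21 nt, and at 22 nt and at 23 nt the share was higher for miR-23b-3p. miR-24-3p was tailed in 47.7% of its reads at 22 nt and 21.7% at 21 nt. For miR-27-3p, 3 of 3437 reads with an 18 nt templated part were tailed by this count (0.0873%), in which a single added T cannot be seen. Its share was 1.92% at 19 nt (816 exact reads), 27.2% at 20 nt (147), 6.84% at 21 nt (354) and 38.6% at 22 nt (54).

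**Figure D5:**
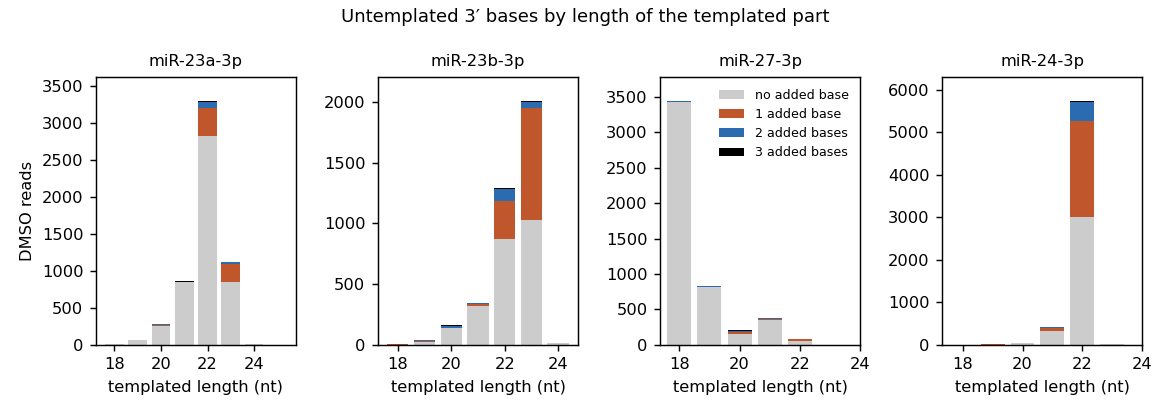
DMSO reads of the 3p products by the length of the part that matches the hairpin (nt), stacked by the number of untemplated A or T after it; each panel has its own scale. Added bases make up 47.7% of miR-24-3p at 22 nt and 48.8% of miR-23b-3p at 23 nt, and 0.0873% of miR-27-3p at 18 nt.

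The 5′ ends, which set the seed, were far less variable. The most abundant start held 96.8% of the reads of miR-23-3p, 99.3% of miR-27-3p and 99.2% of miR-24-3p, against a median of 97.8% over the 310 products. The short miR-27-3p reads therefore keep the seed of the annotated form. A start 1 base earlier was seen in 179 reads of miR-23-3p (2.47%), 32 of miR-27-3p and 17 of miR-24-3p. A start 1 base later would give miR-27 the seed CACAGUG of miR-128-3p, a miRNA known from neurons.
miR-128-3p: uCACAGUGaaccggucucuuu

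That later start was found in 1 of 4805 reads of miR-27-3p (0.0208%, interval 0.000527 to 0.116), while miR-128-3p itself had 18425 reads. No other mature miRNA of the RefSeq table has the seed of miR-23 or miR-27 or of their forms that start 1 base earlier. That table holds 1005 hairpins, fewer than the 1174 counted here, and relatives missing from it would not be found. Of the 5p strands, miR-23b-5p had the most shifted starts, with 146 of its 917 reads (15.9%) starting 1 base before its main start. For miR-23a-5p, 0 of 114 reads started 1 base before its own main start, which allows up to 2.63%. These main starts are not at the same place. The main tag of miR-23b-5p begins with GGGUUCCUGG, and that of miR-23a-5p has 1 more G before these bases. Aligned on these bases, all 114 reads of miR-23a-5p began at the place of the earlier start of miR-23b-5p.

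In the SC1 list, reads of 15 to 17 nt on the 6 hairpins were nearly all of miR-27-3p, at 927 of 947 (97.9%, interval 96.8 to 98.7). There were 873 reads of 17 nt, 27 of 16 nt and 27 of 15 nt, and every one matched both hairpins. The main tags are shown as deposited; they are the 18 nt DMSO tag without its last 1, 2 and 3 bases.
17 nt, 873 reads: ttcacagtggctaagtt
16 nt, 24 reads: ttcacagtggctaagt
15 nt, 26 reads: ttcacagtggctaag

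The 15 nt tag, with 26 reads, also occurs in a transcript of Sox12, so its origin is uncertain. The other products had few short reads. There were 7 on the 3p side of the miR-24 hairpins, of which 5 lay at the start of miR-24-3p and 2 beyond its end. miR-23a-5p also had 7, the miR-23-3p paralogs 3 between them, miR-27b-5p 2, and the loop side of Mir24-2 had 1. miR-23b-5p had 0 reads in the SC1 list, which allows up to 3, and 917 in the DMSO list. By its short reads miR-27-3p ranked 6 among the 289 mature products that had any in the SC1 list and also had DMSO reads. Products without DMSO reads were not ranked. The median over the 310 products was 1.5. The products ranked above miR-27-3p all had 18 nt DMSO shares above the median of 0.267%, from 3.26% (miR-25-3p) to 56.3% (miR-3473b-3p with miR-3473e-5p). The 2 orders were not the same, but the short SC1 reads are counts that are not scaled to the abundance of a product. miR-296-3p, with the highest share (93.1%), had 264 short reads, and miR-409-3p, with a share of 19.5%, had 3949. The SC1 reads and the DMSO reads come from different length classes of different libraries, so these counts do not show whether SC1 changed miR-27 or its length.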

How the data were processed

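The authors deposited, for each of the SC1 and DMSO libraries, a list of distinct tags with raw read counts that were not normalized. Per the submitters' processing notes the build was mm9. No source used here gives the adapter, the trimming, the filter on length or an aligner. The last line of the DMSO list, a total of 18870345, was left out. Tags were matched exactly and in sense to the 1174 Mir hairpins of GENCODE M21. Coordinates are those of GRCm38 and were not converted from mm9. The arm was taken from the side of the hairpin midpoint on which the middle of the tag lies, and tags that fit several hairpins were split equally. RefSeq sequences were matched by symbol, and 11 mature entries of the 6 hairpins were found. Tails are up to 3 untemplated A or T on a match of at least 18 nt.

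Intervals are exact Clopper-Pearson 95% intervals of shares, and 3 counts served as the upper limit of a count of 0. The lists give no molecular identifiers, so the reads of a tag need not be independent molecules. With 1 library per condition there is no test. The members and lists were chosen with earlier results of these data known. Named miRNAs are all arms of the list, the highest 18 nt shares among products at least as abundant as miR-23b-3p, and seed relatives; miR-700-3p was named after its value was seen. The matching was tested on simulated reads. Alternatives were other minimum counts, other treatments of shared tags, other lengths and starts, tail removal and counts of distinct tags. The scripts ran under Python 3.11.15 with scipy 1.17.1 for intervals, numpy 2.4.6, and matplotlib 3.10.9 for plots.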

Additional observations from a re-analysis of the deposited data

Results flagged for a closer look

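Reads on the strand opposite the 6 hairpins lie outside the counts given above for these hairpins. In the SC1 list, 0 reads of 15 to 17 nt were antisense to any of the 6 hairpins; its length class cannot be compared with that of the DMSO list. The DMSO list held 11 reads of 18 to 26 nt antisense to Mir24-1, more than the 3 that a count of 0 in that list would allow. Of these, 2 are also antisense to Mir24-2, and 7 were a single tag of 23 nt. Mir3074-1 is annotated on that strand.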

How the results depend on the processing

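No paired analysis was possible because SC1 and DMSO have a single library each, and replicates could not be left out. Values below lie outside the counting interval of the value first given; the alternative's own counting error was not added, and 1.92% by distinct tags rests on 15 tags. Where the setting itself does not show the cause, the cause was not tested. The 6 hairpins held 0.800% of DMSO hairpin reads, 0.576% without shared tags, 0.813% by the most abundant tag of each arm, 0.845% by tags at the main start and 0.942% after tail removal. Their pooled 3p share (88.5%) was 81.1% without shared tags, 90.3% by the most abundant tags, 85.2% over 20 to 24 nt, 61.0% by distinct tags and 91.0% after tail removal. For Mir27b the majority turned to the 5p arm, with a 3p share of 28.4% over 20 to 24 nt and 41.2% by distinct tags. For Mir24-2 and Mir24-1 it was 0% without shared tags, since all their 3p tags are shared. The 18 nt share of miR-27-3p (71.5%) was 69.6% after tail removal and 18.8% by distinct tags. The chromosome 8 share of miR-27-3p (16%) was 22.5% over 21 to 23 nt, 36.6% over 20 nt or more and 18.7% after tail removal. The last 2 settings here, and tail removal for the 3p share, were chosen after seeing the data. The SC1 share of the hairpins (1.78%) was 6.39% in 17 nt tags, 1.89% at the main start and 1.92% by distinct tags. Of 170 values of single arms, hairpins and products under an alternative, 57 lay outside the same kind of interval, some on a few reads, and the 4 given above turned to the other arm. Few reads limit the 5p arms of Mir27a, Mir24-2 and Mir24-1.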

Other observations

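Beyond miR-24-3p, 4 mature miRNAs of the RefSeq table have its seed GGCUCAG. In the DMSO list, miR-5124b, miR-6369 and miR-6410 had 0 reads on the arm that holds them, which allows up to 3 reads each, and miR-6413 had 0.5 after splitting of a shared tag.

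Tags away from the mature arms were rare. In the SC1 list, 2 reads of 17 nt lay at positions 83 to 99 of Mir24-2, just after the end of miR-24-3p, and 1 read of 16 nt at positions 46 to 61. In the DMSO list, 1 read of 20 nt lay in the loop of Mir27a (positions 36 to 55). Another read of 20 nt, at positions 43 to 62 of Mir27b, began in the loop and overlapped miR-27b-3p, whose main tag starts at position 49.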
